A study of Mus musculus with 24 samples.

Results

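The keratin genes of the mouse were described across brain, heart, kidney and liver by their H3K27Ac, histone H3 acetylated at lysine 27, a mark found at active promoters and enhancers. The members were all genes whose symbol is Krt followed by a number and at most 1 letter, and 54 of the 27179 genes in the deposited table had such a symbol. They were read as the 5 simple epithelial keratins, Krt7, Krt8, Krt18, Krt19 and Krt20, against the other 49, which comprised 20 basal and stratified epithelial, 15 hair, 8 inner root sheath and 6 other keratins. The keratin-associated proteins (Krtap genes) were not members.

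Keratins are the intermediate filament proteins of epithelia, and each filament is built from pairs of 1 acidic type I and 1 basic type II chain. Krt8 (type II) and Krt18 (type I) are the pair of simple, single-layered epithelia and the pair of hepatocytes, while bile ducts and kidney collecting ducts add Krt7 (type II) and Krt19 (type I). Krt5 and Krt14 mark the basal layer of stratified epithelia, Krt1 and Krt10 the layers above it in epidermis, and the hair and inner root sheath keratins the hair follicle. Neurons, glia and cardiac muscle cells make their intermediate filaments from other families, such as neurofilaments, glial fibrillary acidic protein, vimentin and desmin.

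The table from chromatin immunoprecipitation and sequencing (ChIP-seq) has 8 columns, 1 for each of the 4 organs in each of 2 preservations, which were taken as 8 libraries, and the design asks how FFPE tissue compares with frozen tissue in each organ. Frozen samples were cores of flash-frozen organs crosslinked for 30 min in 1% formaldehyde, and FFPE samples were organs fixed in 10% formalin and embedded in paraffin, whose chromatin was extracted at 95 °C for 20 min. Both kinds came from mice whose strain, age, sex, genotype and treatment the labels do not state, and no group carries a stated allele or agent. Each group had 1 column, taken as a single library, so values inside an organ and a preservation have no replicate error. Animals and preservation cannot be told apart. Values are log2 CPM, the base-2 logarithm of the reads over a gene relative to a library size scaled by the authors, and a difference of 1 on this scale is 2-fold. A gene was called where limma's Benjamini-Hochberg adjusted p, over 26944 genes, was under 0.05 for an organ against the mean of the other 3, with both preservations in the model.

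The libraries held 4404789 to 6164562 counts, with a median of 87 to 119 counts per gene. Heart Frozen and liver Frozen stood apart in the spread of their values over genes. Their SDs were 2.40 and 2.39, against 1.94 to 2.09 in the other 6 libraries. Calls and medians for heart and liver are also given without heart Frozen and liver Frozen. Brain FFPE and brain Frozen had the smallest SDs, 1.94 and 1.96, and brain calls are also given without each. Each organ carried its own markers: 9 of 10 neuron markers were higher in brain (Stmn2 by 2.73 ± 0.28, SE), 10 of 10 cardiomyocyte markers in heart (Myh6 by 3.33 ± 0.20), 9 of 10 nephron tubule markers in kidney (Slc34a1 by 2.60 ± 0.23) and 10 of 10 hepatocyte markers in liver (Tat by 4.13 ± 0.24). The tissues were bulk organs, so fewer cells of a type and less H3K27Ac per cell cannot be told apart. No input column was analysed here, so whether the lowest values exceed the background of the assay was not tested.

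The keratin median lay below the median of all tested genes in every library, but no keratin was empty. No keratin was at 0 counts in any library, and single values ran from 10 counts (Krt18 in heart Frozen) to 612 counts (Krt10 in liver Frozen). The keratin median reached 3.90 log2 CPM for brain Frozen, 3.52 for brain FFPE, 3.50 in kidney Frozen and 3.55 in kidney FFPE, 3.41 in liver FFPE and 3.18 in heart FFPE, and was lowest at 2.80 in liver Frozen and 2.77 in heart Frozen. The median of all tested genes in the same libraries ran from 4.25 to 4.40. Levels per kb were not computed for all genes, so this comparison does not account for gene length. Over the 54 keratins the level followed the length of the gene (Spearman's rho 0.60 between genomic span and mean log2 CPM, a description across genes), so genes are compared with each other only per kb of span. The counted part of a gene was not given, so values per kb assume that reads were counted over the whole span. Per kb, Krt10 ranked first with a mean of 6.64 CPM per kb over the 8 libraries, ahead of Krt8 (3.46), Krt1 (3.25) and Krt24 (3.24). Within single libraries Krt24 led in brain FFPE (11.2 CPM per kb), Krt1 in brain Frozen (6.03) and Krt8 in liver FFPE (5.32), and Krt10 led in the others. Among the simple epithelial keratins, Krt18 had a mean of 2.33, Krt19 of 1.72, Krt20 of 1.19 and Krt7 of 1.15 CPM per kb.

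The genes the results turn on are shown by their promoter windows, 300 bases from 250 before to 50 after the RefSeq transcription start (build GRCm38.p6, the assembly of mm10), each written 5′ to 3′ on the strand of its gene. Krt8 and Krt18 are shown as the simple epithelial pair, higher in liver and lower in heart, Krt7 because it was the keratin called in kidney, Krt24 because it had the largest difference of any keratin, and Krt79 as a stratified keratin higher in liver. The windows lie at chr15:102004293-102004592, minus strand, chr15:102027966-102028265, plus strand, chr15:101412153-101412452, plus strand, chr11:99285213-99285512, minus strand and chr15:101940275-101940574, minus strand. Capitals mark matches on either strand to TATAAA (the TATA box), GGGCGG (the GC box) or CCACCC (the CACCC box).
Krt8: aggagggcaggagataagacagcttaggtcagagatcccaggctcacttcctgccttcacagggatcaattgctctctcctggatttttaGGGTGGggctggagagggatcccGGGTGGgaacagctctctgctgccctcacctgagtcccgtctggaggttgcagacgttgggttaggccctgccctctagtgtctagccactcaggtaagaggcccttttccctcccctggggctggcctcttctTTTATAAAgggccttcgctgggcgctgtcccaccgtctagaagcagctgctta
Krt18: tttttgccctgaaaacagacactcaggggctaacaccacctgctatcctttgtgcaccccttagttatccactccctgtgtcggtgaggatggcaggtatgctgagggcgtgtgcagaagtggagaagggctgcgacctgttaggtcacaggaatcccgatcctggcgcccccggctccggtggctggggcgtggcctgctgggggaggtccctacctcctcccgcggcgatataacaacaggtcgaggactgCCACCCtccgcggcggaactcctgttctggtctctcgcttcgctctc
Krt7: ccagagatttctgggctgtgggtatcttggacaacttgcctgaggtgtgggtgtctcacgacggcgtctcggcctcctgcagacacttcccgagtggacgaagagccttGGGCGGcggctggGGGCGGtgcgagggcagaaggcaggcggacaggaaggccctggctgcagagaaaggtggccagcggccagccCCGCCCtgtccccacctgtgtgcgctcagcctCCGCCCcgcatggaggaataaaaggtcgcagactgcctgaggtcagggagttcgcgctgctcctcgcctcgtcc
Krt24: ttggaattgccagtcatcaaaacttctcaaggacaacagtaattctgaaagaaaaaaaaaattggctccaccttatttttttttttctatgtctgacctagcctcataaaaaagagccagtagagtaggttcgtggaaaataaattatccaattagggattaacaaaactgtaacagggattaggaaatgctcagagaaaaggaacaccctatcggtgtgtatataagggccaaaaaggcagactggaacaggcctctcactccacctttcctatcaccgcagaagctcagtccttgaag
Krt79: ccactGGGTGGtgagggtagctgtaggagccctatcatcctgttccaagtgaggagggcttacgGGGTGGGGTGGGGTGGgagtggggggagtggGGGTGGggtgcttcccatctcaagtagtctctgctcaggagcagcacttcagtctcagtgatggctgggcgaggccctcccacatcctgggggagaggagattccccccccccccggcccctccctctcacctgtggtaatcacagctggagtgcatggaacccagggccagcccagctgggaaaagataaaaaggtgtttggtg

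A promoter window was found in the RefSeq table for 36 of the 54 keratins (37 windows), 4 of the 5 simple epithelial keratins among them. TATAAA was present in 19 of the 37 keratin windows (51.4%) against 13.6% of all 32851 windows, and GGGCGG in 2 (5.41%) against 35.7%. CCACCC was present in 17 (45.9%) against 31.5%, TGANTCA (the AP-1 site) in 2 against 7.81%, and AACCGG (a Grainyhead-like motif) in 2 against 6.83%. All motifs were searched on both strands, and TATAAA on opposite strands can overlap, as in Krt8. Krt7 had 4 GC boxes, at 141, 128, 56 and 24 bases before the start, and 21 CpG dinucleotides, the highest number among the keratin windows. Krt18 had 17 CpG dinucleotides, Krt8 had 6, and Krt24 and Krt79 had 3 each, against medians of 5 over keratin windows and 7 over all windows. These matches describe the letters of the windows only.

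Krt8, the type II partner of the simple epithelial pair (Entrez 16691, chr15:101996711-102004342), was high in liver and low in heart and brain. It stood at 5.99 log2 CPM in liver Frozen, 5.34 in liver FFPE, 4.56 in kidney Frozen, 5.27 in kidney FFPE, 3.95 in brain Frozen, 3.24 in brain FFPE, 2.59 in heart Frozen and 3.76 in heart FFPE. Both liver libraries lay above all 6 others, while the heart and brain libraries overlapped each other. Liver exceeded the mean of the other organs by 1.77 ± 0.30 (log2 difference ± SE, limma adjusted p = 3.30e-05), heart was lower by a log2 difference of -1.55 ± 0.30 (limma adjusted p = 3.35e-04), and brain by -0.99 ± 0.30 (limma adjusted p = 0.0158). In kidney the difference of 0.77 did not pass the test (limma adjusted p = 0.166). The liver difference was 1.25 without liver Frozen and lost the call (limma adjusted p = 0.0555), the heart difference was -0.85 without heart Frozen (limma adjusted p = 0.272), and the brain difference was -0.43 without brain FFPE (limma adjusted p = 0.469). Brain also lost its call without heart FFPE (-0.76), without kidney FFPE (-0.86) and without liver Frozen (-0.82).

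Krt18, the type I partner of Krt8 (Entrez 16668, chr15:102028216-102032026), followed the same order of organs. Per kb its mean of 2.33 CPM was below the 3.46 of Krt8, but in brain FFPE Krt18 was above Krt8 (1.99 against 1.24). Its values were 3.97 log2 CPM in liver Frozen, 3.93 in liver FFPE, 3.16 in kidney Frozen, 3.32 in kidney FFPE, 2.49 in brain Frozen, 2.92 in brain FFPE, 1.20 in heart Frozen and 2.51 in heart FFPE. Both liver libraries again lay above the other 6, and heart FFPE lay between the brain libraries. Liver was higher by 1.35 ± 0.37 (limma adjusted p = 0.00761) and heart lower by a log2 difference of -1.44 ± 0.37 (limma adjusted p = 0.0057). The kidney difference of 0.40 (limma adjusted p = 0.718) and the brain difference of -0.31 (limma adjusted p = 0.595) did not pass. Without liver Frozen the liver difference was 1.01 (limma adjusted p = 0.310), and without heart Frozen, where Krt18 had 10 counts, the heart difference was -0.88 (limma adjusted p = 0.441). Over the 8 libraries Krt8 and Krt18 had a Pearson correlation of 0.90, given as a description of libraries that fall into 4 organs, for genes that lie 23.9 kb apart on chromosome 15.

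Krt7, a type II keratin of ducts and of the urothelium (Entrez 110310, chr15:101412403-101427806), was the keratin called in kidney. It stood at 5.14 log2 CPM in kidney Frozen (199 counts) and 5.40 in kidney FFPE (222 counts), 3.80 in brain Frozen, 3.04 in brain FFPE, 3.68 in heart Frozen, 3.58 in heart FFPE, 2.80 in liver Frozen and 3.38 in liver FFPE. The kidney libraries lay above the other 6, and liver FFPE overlapped the brain libraries. Kidney was higher by 1.89 ± 0.30 (limma adjusted p = 5.82e-05), with differences of 1.71 within Frozen and 2.07 within FFPE tissue. Liver was lower by a log2 difference of -1.02 ± 0.30 (limma adjusted p = 0.0131). The kidney call was lost without kidney FFPE, where the difference was 1.71 (limma adjusted p = 0.058), and the liver call was lost without liver Frozen (-0.63) and without kidney FFPE (-0.96).

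Krt19 and Krt20 were called in no organ. Krt19, a type I keratin of duct epithelia (Entrez 16669, chr11:100140810-100145926), ran from 2.38 log2 CPM in liver Frozen to 3.80 in kidney FFPE. Its kidney difference of 0.73 (limma adjusted p = 0.347) and its liver difference of -0.69 (limma adjusted p = 0.198) did not pass. Krt20, a type I keratin of intestinal epithelium and of the surface cells of the urothelium (Entrez 66809, chr11:99428385-99438153), ran from 2.96 in heart Frozen to 3.87 in kidney Frozen. Its kidney libraries, at 3.87 and 3.82, lay above the other 6 by a small margin, and its kidney difference was 0.46 (limma adjusted p = 0.571).

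**Figure D1:**
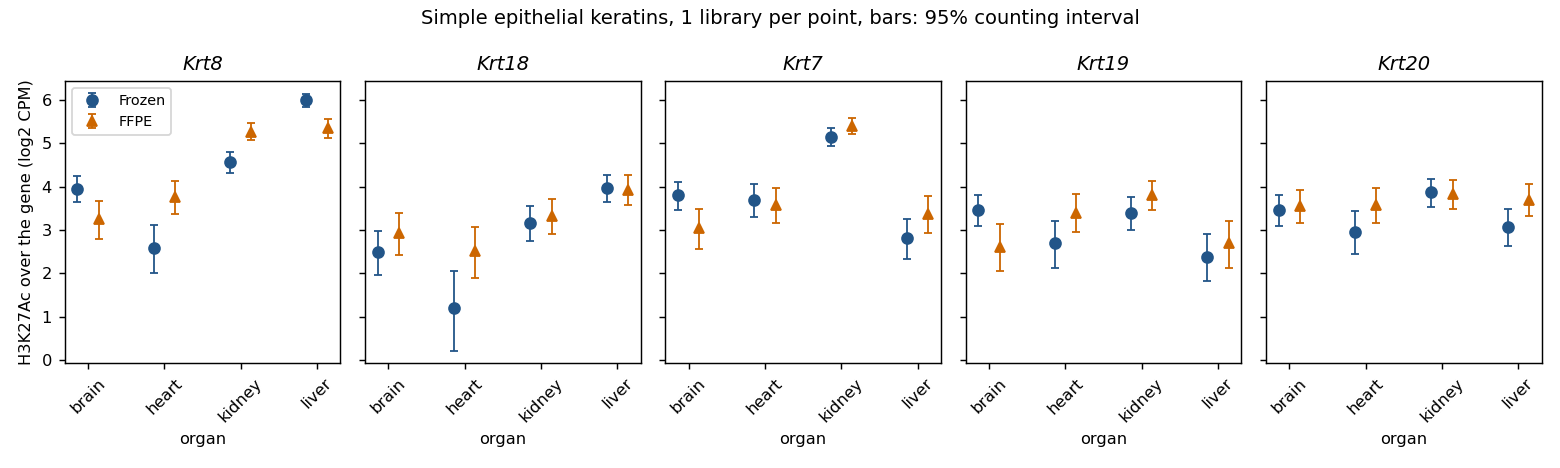
H3K27Ac over the 5 simple epithelial keratin genes (log2 CPM, vertical axis) in each organ (horizontal axis), 1 library per point, with Frozen as circles, FFPE as triangles and bars for exact 95% counting intervals. Krt8 and Krt18 were highest in both liver libraries, Krt7 stood at 5.14 and 5.40 in kidney against 2.80 to 3.80 elsewhere, and Krt19 and Krt20 showed a narrow range.

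The simple epithelial keratins and the other keratins were then set side by side over the organs. In brain, 9 of the 54 keratins (16.7%) were higher and 1 (1.85%) was lower, where 8.73% of all tested genes were higher and 13.6% lower. The 9 higher keratins were all outside the simple epithelial group, and the lower one was Krt8. In heart, 6 keratins (11.1%) were lower, against 7.31% of all genes, and these included Krt8 and Krt18. No keratin was called higher in heart by limma, where 9.42% of all genes were, 2 were higher at an unadjusted p under 0.05, and limma with voom weights on the recovered counts called 1. In kidney, 1 keratin (Krt7, 1.85% of the keratins) was higher against 3.19% of all genes. Limma called none lower there against 2.03%, with 1 lower at an unadjusted p under 0.05 and none with voom weights. In liver, 4 keratins (7.41%) were higher against 11.2% of all genes, and 5 (9.26%) were lower against 9.73%. Simple epithelial were 2 of the 4 and 1 of the 5. The shares of keratins called in kidney and liver thus lay near or below those of all genes. The 26 calls fell on 18 keratins, 3 simple epithelial and 15 others.

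The median difference over the 49 other keratins was 0.58 for brain, -0.47 for heart, 0.25 for kidney and -0.33 for liver. Over the 5 simple epithelial keratins it was -0.31 for brain, -0.31 for heart, 0.73 for kidney and -0.16 for liver, and over all tested genes it was 0.04, -0.04, -0.02 and -0.06. The medians of both keratin groups kept their signs when all libraries were given the same distribution or the same median and spread. For all 54 keratins the brain median was 0.51 as deposited, 0.28 with quantile normalization and 0.36 with the same median and spread. The heart median was -0.46, -0.29 and -0.36 in the same order, and the liver median was -0.32, -0.21 and -0.21. For the simple epithelial keratins the brain median was further from 0 under both, at -0.62 and -0.53. The medians also moved with single libraries. Without liver Frozen the liver median was -0.16 for the 49 others and 0.05 for the simple keratins, and without heart Frozen the heart medians were -0.32 and -0.36. Without brain Frozen the brain median was 0.28 for the 49 others, and without brain FFPE it was -0.07 for the simple keratins. Without kidney Frozen the kidney median was 0.02 for the 49 others. Both libraries of an organ lay above all 6 others for 16 of the 54 keratins in brain, 3 in kidney and 4 in liver, where 13.1%, 4.76% and 9.60% of all genes did. Both lay below for 11 keratins in heart and 3 in liver, where 6.40% and 8.94% of all genes did. For no keratin did both lie above in heart, or below in brain or kidney, where 8.94%, 11.7% and 2.92% of all genes did.

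**Figure D2:**
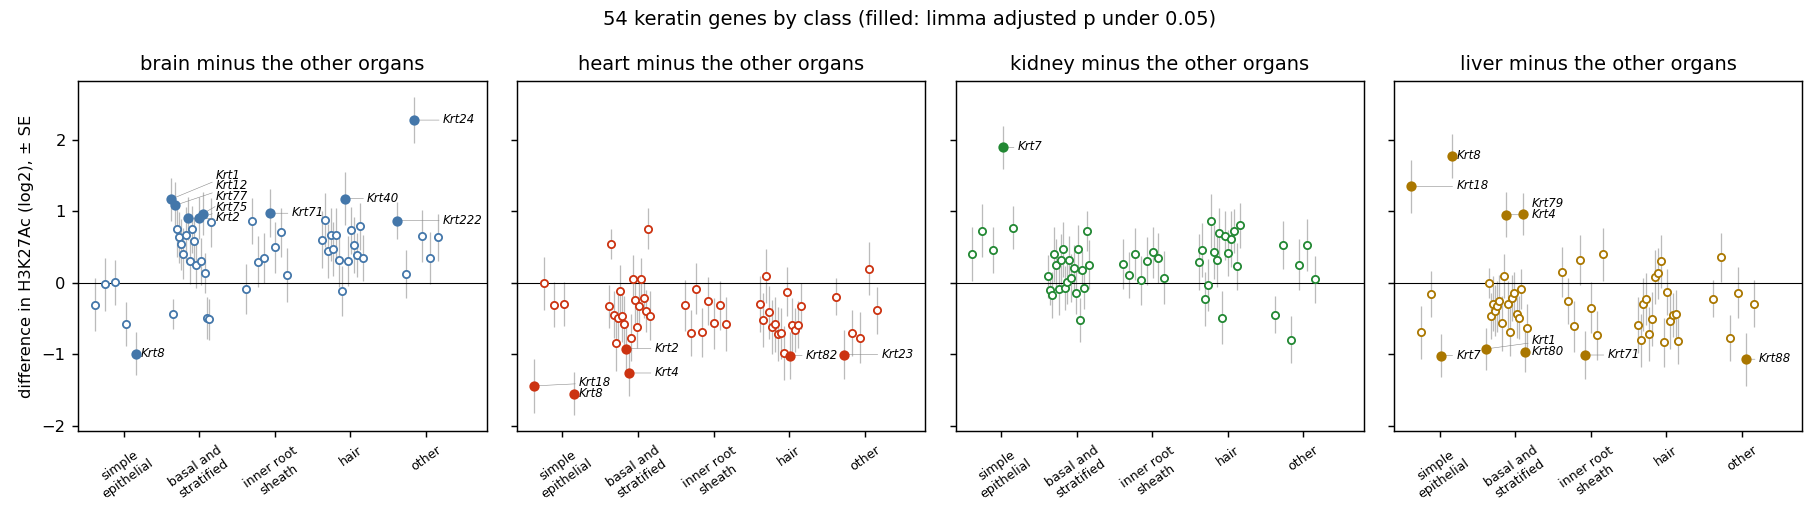
Difference in H3K27Ac between each organ and the mean of the other 3 (log2, vertical axis, 1 panel per organ) for the 54 keratin genes by class (horizontal axis), with bars for the SE and filled points for a limma adjusted p under 0.05. Filled points in brain lie above 0 except Krt8, those in heart lie below 0, kidney has Krt7 alone, and liver has Krt8, Krt18, Krt4 and Krt79 above 0 and 5 genes below.

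Krt24, a little-studied type I keratin (Entrez 75706, chr11:99279959-99285262), had the largest difference of all keratins, in brain. Brain Frozen stood at 4.73 log2 CPM (153 counts) and brain FFPE at 5.90 (286 counts), with the remaining libraries at 2.59 in heart Frozen, 3.58 in heart FFPE, 3.16 in kidney Frozen, 2.87 in kidney FFPE, 2.65 in liver Frozen and 3.41 in liver FFPE. Both brain libraries lay above all 6 others. Brain was higher by 2.27 ± 0.32 (limma adjusted p = 2.77e-06), by 1.93 within Frozen and 2.61 within FFPE tissue. Of the 26 calls this was the 1 that passed in all 8 fits without a library and all 7 other alternatives, the largest adjusted p being 0.0179. A long noncoding RNA gene, Gm32385, overlaps 5304 bp of Krt24, and reads of the 2 cannot be told apart. The same holds for other called keratins, Krt12 (A830036E02Rik, 5351 bp), Krt80 (Gm35853, 11570 bp, and Mir1941, 83 bp) and Krt222 (Gm32385, 495 bp).

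The stratified keratins higher in brain were Krt1 (1.16 ± 0.30, limma adjusted p = 0.00411), the type II keratin of suprabasal epidermis, Krt12 (1.08 ± 0.32, limma adjusted p = 0.0136), the type I keratin of the cornea, Krt77 (0.96 ± 0.30), Krt75 (0.90 ± 0.30), a type II keratin of the hair follicle's companion layer, and Krt2 (0.90 ± 0.31), a type II keratin of upper epidermis. For Krt1, brain Frozen had 5.01 log2 CPM and brain FFPE 4.69, where the other organs ran from 2.80 to 4.34. Krt12 had 3.97 and 4.47, against 2.61 to 3.52. Both brain libraries thus lay above all others for each of these 2 genes. The hair keratin Krt40 was higher by 1.18 ± 0.37 (limma adjusted p = 0.0191), with brain Frozen at 4.05, brain FFPE at 3.45 and the other organs from 1.94 to 3.11. The inner root sheath keratin Krt71 was higher by 0.97 ± 0.33 (limma adjusted p = 0.0325). Krt222, named after its values were seen, was higher by 0.87 ± 0.26 (limma adjusted p = 0.0137), and its neighbour Krt24 lies 35.8 kb away. Without brain Frozen the number of keratins higher in brain fell from 9 to 1 (Krt24), in a fit that called 4.32% of all genes higher, and without brain FFPE to 4, with 5.36% of all genes higher. It was 5 without kidney FFPE and ran from 7 to 12 without each of the other libraries.

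Krt5 and Krt14, the basal pair, were called in no organ and ran from 2.59 to 3.92 and from 2.37 to 3.61 log2 CPM. Krt10, the suprabasal type I keratin and partner of Krt1, had the highest mean level per kb of all keratins. It ran from 5.79 in liver FFPE to 7.04 log2 CPM in heart Frozen and was called in no organ. Of the 10 epidermis and hair follicle markers that are not keratins, 1 was higher in brain (Sbsn, 0.88 ± 0.31), 2 were lower in heart (Trp63 and Foxn1), 1 was higher in kidney (Tchh, 0.98 ± 0.24) and 1 in liver (Trp63, 0.69 ± 0.21). The shares of all genes were 8.73% higher in brain, 7.31% lower in heart, 3.19% higher in kidney and 11.2% higher in liver. The 1 of 10 in brain and in liver thus lies near the share of all genes. None of these 10 markers was at 0 counts in any library, and their summed level was 288.5 and 326.7 CPM in the brain libraries against 229.1 to 474.7 in the other 6. Their part in the keratin values was not tested.

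In heart, the keratins called lower beside Krt8 and Krt18 were Krt4 (-1.26 ± 0.32, limma adjusted p = 0.00445), a type II keratin of the lining of mouth and oesophagus, the hair keratin Krt82 (-1.02, limma adjusted p = 0.0272), Krt23 (limma adjusted p = 0.0377) and Krt2 (-0.92, limma adjusted p = 0.0337). Krt4 had 2.43 log2 CPM in heart Frozen and 2.87 in heart FFPE against 3.40 to 4.65 in the other organs, so both heart libraries lay below the rest. Krt23 had 2.17 in heart Frozen and 3.00 in heart FFPE against 3.21 to 3.86. Both heart libraries also lay below the other 6 for Krt82 and Krt2. Without heart Frozen no keratin was called lower in heart, in a fit that called 1.35% of all genes lower. The number was 3 without brain Frozen, and from 4 to 8 without each of the other libraries.

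In liver, 2 stratified type II keratins were higher beside Krt8 and Krt18. Krt79 had 4.53 log2 CPM in liver Frozen and 4.91 in liver FFPE against 3.14 to 4.17 in the other 6 libraries, a difference of 0.96 ± 0.29 (limma adjusted p = 0.0162). Krt4 had 3.97 and 4.65 against 2.43 to 3.89, a difference of 0.95 ± 0.32 (limma adjusted p = 0.0287). In both the liver libraries lay above the rest, with a larger gap in FFPE (1.49 for Krt79 and 1.31 for Krt4) than in Frozen tissue (0.43 and 0.59). The Krt79 call was lost without liver FFPE, and the Krt4 call without brain FFPE, kidney FFPE and either liver library. Lower in liver were Krt88 (-1.07, limma adjusted p = 0.0343), Krt71 (-1.01, limma adjusted p = 0.027), Krt80 (-0.96 ± 0.28, limma adjusted p = 0.0121) and Krt1 (-0.92, limma adjusted p = 0.0232), beside Krt7. Without liver Frozen no keratin was called lower and 1 was called higher in liver, in a fit that called 3.5% and 4.66% of all genes. Without liver FFPE 2 were higher and 9 lower, without brain Frozen or kidney FFPE 2 were lower, and without kidney Frozen 3.

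The genomic position was not part of the choice of genes. All 54 keratins lie in 2 clusters, 27 in the type I cluster from Krt222 to Krt42 (chr11:99232761-100269951, 1037.2 kb) and 27 in the type II cluster from Krt80 to Krt18 (chr15:101348315-102032026, 683.7 kb). Krt18 is a type I keratin but closes the type II cluster, next to Krt8. The 4 keratins higher in liver were within 113.5 kb at this end, in the order Krt4, Krt79, Krt78, Krt8, Krt18, and Krt78 between them had a liver difference of -0.09. Beyond Krt18 the next gene, Eif4b (a translation initiation factor), lies 41.7 kb away and had a liver difference of 0.32 (limma adjusted p = 0.301). Next come Tns2 and Spryd3, with liver differences of 0.14 and -0.47 that were not called. Further out, Igfbp6 (an insulin-like growth factor binding protein) and Soat2 (a cholesterol esterifying enzyme) were higher in liver by 1.33 ± 0.27 and 1.65 ± 0.25. Krt8 and Krt78 are 0.1 kb apart, so reads near their shared boundary could count for either.

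At the other end of the type II cluster, Krt7 and Krt80 lie 42.2 kb apart, the microRNA gene Mir1941 lies within Krt80, and Krt87 follows Krt7. In liver both Krt80 and Krt7 were lower. In the type I cluster, Krt222 and Krt24 at its start were higher in brain, while Smarce1, the gene just outside it, had a brain difference of -0.45 (limma adjusted p = 0.139). Krt19 lies between Krt15 and Krt9, and neither neighbour was called in an organ. The 37 other genes within the type I cluster, most of them Krtap genes, included 5 that were higher in brain (median difference 0.70) and 5 that were lower in heart (median -0.58). Of all tested genes, 8.73% were higher in brain and 7.31% lower in heart. The 27 type I keratins had medians of 0.60 in brain and -0.49 in heart. The 6 other genes within the type II cluster had medians of 0.26 and -0.49, and none was called.

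**Figure D3:**
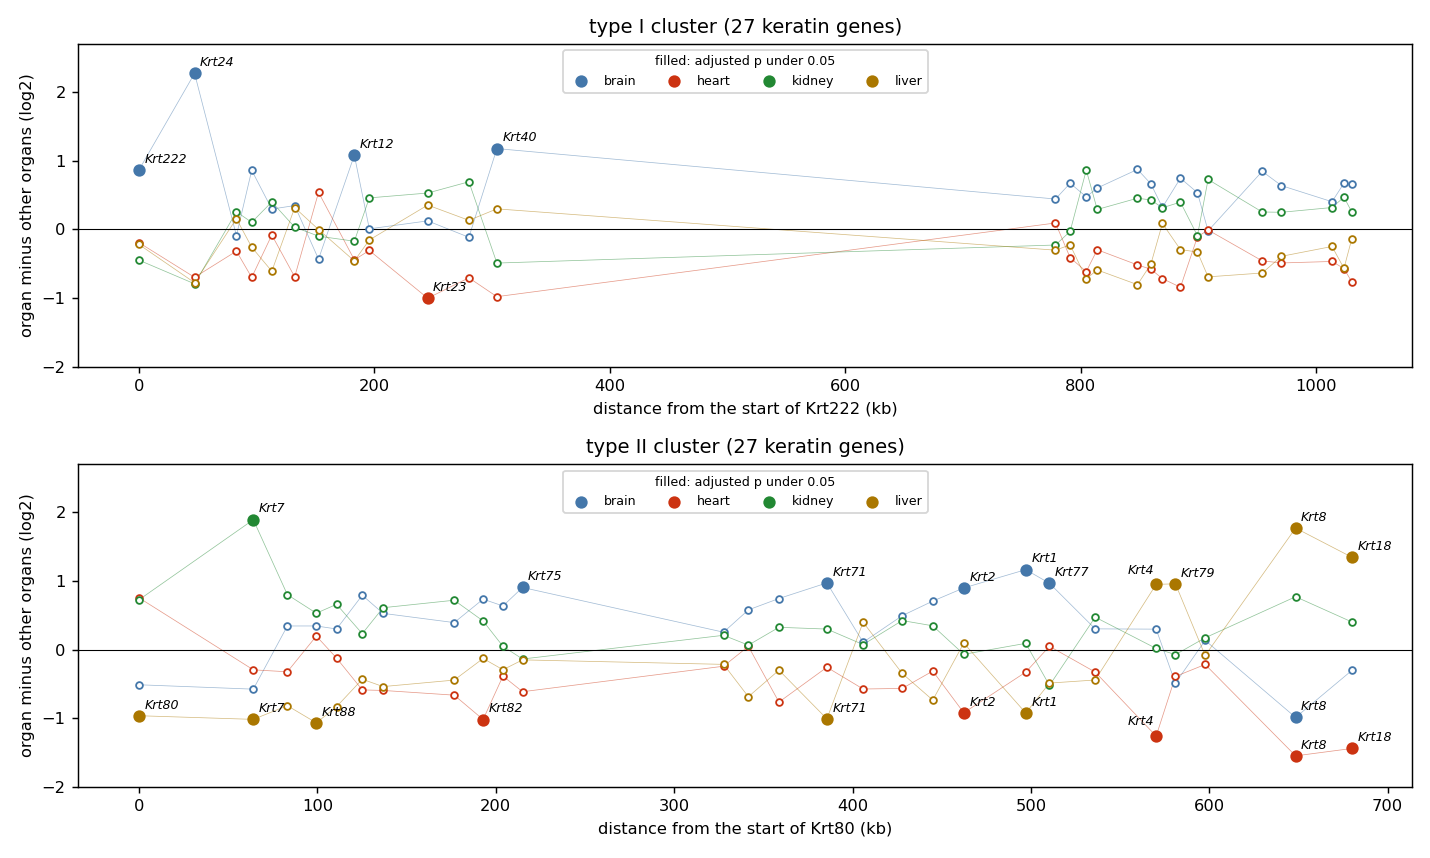
Difference in H3K27Ac between each organ and the mean of the other 3 (log2, vertical axis) by the distance of each keratin's start from the first keratin (kb, horizontal axis) for the type I cluster above and the type II cluster below, with organs as colours and filled points for a limma adjusted p under 0.05. The filled liver points above 0 lie at the right end of the type II cluster, Krt7 is the kidney point at its left, and Krt24 is the brain point near the left end of the type I cluster.

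Other genes that go with keratins were read in the same fit. Some genes, Trp63, Nefl, Gfap, Dsg3 and Grhl3 among them, stand in more than 1 of the lists, so the lists are not independent. Of 16 epithelial regulators (transcription and splicing factors and junction genes of epithelia), 10 were higher in kidney, with a list median of 1.09, among them Elf3 (2.08 ± 0.25), Cldn4 (2.06 ± 0.30), Epcam (1.60 ± 0.26) and Cldn7 (1.59 ± 0.27). In heart 7 of the 16 were lower, among them Elf5 (-1.56 ± 0.26), Elf3 (-1.51 ± 0.25), Esrp2 (-1.50 ± 0.23) and Ehf (-1.11 ± 0.24). In liver 3 were higher, Esrp2 (2.29 ± 0.23), Elf5 (1.83 ± 0.26) and Trp63 (0.69 ± 0.21), and 2 were lower, and in brain Esrp2 (-1.96 ± 0.23) and Elf3 (-0.93 ± 0.25) were lower. Among all tested genes 3.19% were higher in kidney, 7.31% lower in heart, 11.2% higher and 9.73% lower in liver and 13.6% lower in brain. Esrp2 and Esrp1 are splicing factors of epithelial cells, and Epcam and the claudins belong to their junctions.

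Of 16 desmosome and plakin genes, some of which anchor keratin filaments at cell junctions, 3 were higher in liver. These were Dsc2 (1.21 ± 0.23), Dsg2 (0.91 ± 0.22) and Dsp (0.59 ± 0.21), and Dst was lower there (-0.89 ± 0.23). Jup (0.86 ± 0.21) and Plec (0.79 ± 0.23) were higher in heart, Pkp3 (1.02 ± 0.24) and Evpl (0.78 ± 0.22) in kidney, and Dsc3 (0.76 ± 0.24) in brain, where Pkp2 (-1.04 ± 0.21) and Dsp (-0.83 ± 0.21) were lower. The shares of all genes called higher were 11.2% in liver, 9.42% in heart, 3.19% in kidney and 8.73% in brain, so counts of 1 or 2 of 16 in heart and brain lie near the share of all genes. The shares called lower were 9.73% in liver and 13.6% in brain, and the 1 and 2 of 16 lower there also lie near them. Of 13 other intermediate filament genes, 4 were higher in brain, the neuronal Nefl (2.36 ± 0.31), Ina (1.38 ± 0.30) and Nefm (1.10 ± 0.33) and the astrocytic Gfap (0.94 ± 0.23), and 1 was lower. In heart 5 were higher, among them Des (1.94 ± 0.25), Vim (1.91 ± 0.26), Nes (1.56 ± 0.21) and Lmna (0.68 ± 0.21), and 5 were lower in liver, among them Des (-1.26 ± 0.25) and Vim (-1.10 ± 0.26). In kidney none of the 13 was called, and none had an unadjusted p under 0.05.

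Markers of some other cell types of these organs were read beside these values. Of 8 collecting duct markers, 5 were higher in kidney, among them Aqp3 (1.92 ± 0.32) and Aqp2 (1.51 ± 0.29), and 2 were lower in heart and 2 in liver. Of 6 urothelium markers, 1 was higher in kidney (Upk1a, 2.09 ± 0.31). Their summed level was 112.4 and 105.2 CPM in the kidney libraries and 39.9 to 76.4 in the other 6, with no marker at 0. Of 6 mesothelium markers, 1 was higher and 2 lower in liver, 1 higher and 3 lower in heart and 2 higher and 1 lower in brain. Of 8 choroid plexus and ependyma markers, 4 were higher in kidney, 1 was higher and 1 lower in brain, 1 higher and 2 lower in heart and 2 lower in liver. All 8 astrocyte and oligodendrocyte markers were higher in brain, and all 6 endothelium markers in heart. Of all tested genes, 8.73% were higher and 13.6% lower in brain, and 9.42% and 7.31% in heart. In kidney 3.19% were higher, and in liver 11.2% were higher and 9.73% lower. A single call of a list in brain, heart or liver thus lies near the share of all genes. The part of these cell types in the keratin values was not tested.

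No keratin was called between FFPE and Frozen tissue over the 4 organs by limma, where 2% of all genes were higher and 1.91% lower. At an unadjusted p under 0.05, 3 keratins were higher and 2 lower, and voom weights on the recovered counts gave no call either. The smallest adjusted p was 0.0906, for Krt10 (-0.54 ± 0.18), which had a mean of 6.01 log2 CPM over the FFPE and 6.55 over the Frozen libraries. Differences for the simple keratins were 0.46 for Krt18, 0.33 for Krt20, 0.15 for Krt19, 0.13 for Krt8 and -0.01 for Krt7. The median over 54 keratins was 0.12, and its sign turned with the scaling, to -0.06 with quantile normalization and -0.04 with the same median and spread. For no keratin did all 4 FFPE libraries lie above all Frozen libraries, as they did for 3.07% of all genes, or below them, as for 1.41%. Among the other lists the call between FFPE and Frozen tissue was Lor, an epidermal cornified envelope gene (-0.65 ± 0.19, limma adjusted p = 0.0496).

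Within an organ, 1 FFPE library was set against 1 Frozen library, with no test. The keratin median (FFPE minus Frozen, log2) was -0.32 for brain, 0.49 for heart, -0.04 for kidney and 0.40 for liver, over the 54 keratins with at least 40 counts in a pair of libraries, or 51 in heart. Over all tested genes the same median was 0.005 for brain, -0.02 for heart, 0.02 for kidney and 0.04 for liver, without the limit of 40 counts. The difference was above 0 for 13 of 54 keratins in brain, 38 of 51 in heart, 26 of 54 in kidney and 40 of 54 in liver. The share of all genes above 0 was not computed. Past 2-fold higher in FFPE on the deposited log2 scale, whose offset of 0.5 counts draws ratios of low counts toward 1, were 1 keratin in brain (2.53% of all genes), 6 in heart (5.43%), 1 in kidney (2.5%) and 8 in liver (6.95%). On the same scale 1 keratin was past 2-fold lower in FFPE, Krt75 in kidney (ratio of scaled counts 0.479, counting interval 0.331 to 0.684), where 2.76% of all genes were. By the ratio of scaled counts itself, Krt81 in brain (0.499), Krt90 in heart (2.01) and Krt24 in heart would also pass. For brain, heart and liver the share of all genes was 1.83%, 3.86% and 6.68%. Heart Frozen and liver Frozen, the libraries with the wide spread of values, are the Frozen members of the 2 pairs in which keratins were mostly higher in FFPE. Whether the spread accounts for this was not tested.

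Krt24 in brain was 2.25-fold higher in FFPE than in Frozen tissue (95% counting interval 1.84 to 2.75). The FFPE to Frozen ratio of Krt8 was 2.28 (1.42 to 3.74) in heart and 1.64 (1.31 to 2.05) in kidney, but 0.607 (0.414 to 0.879) in brain and 0.637 (0.530 to 0.762) in liver. For Krt7 it was 1.20 (0.984 to 1.46) in kidney and 0.586 (0.389 to 0.869) in brain, and for Krt18 in liver 0.971 (0.698 to 1.35). The largest ratio of any keratin was that of Krt83 in liver, at 4.56 (2.72 to 8.03), from 70 counts in FFPE and 19 in Frozen tissue. These intervals are exact and cover counting error only. The hair keratins Krt81, Krt83 and Krt86, Krt33a and Krt33b, and the stress keratins Krt6a and Krt6b are closely related copies. Their sequences were not compared here and the treatment of multimapping reads was not given, so their counts are uncertain.

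**Figure D4:**
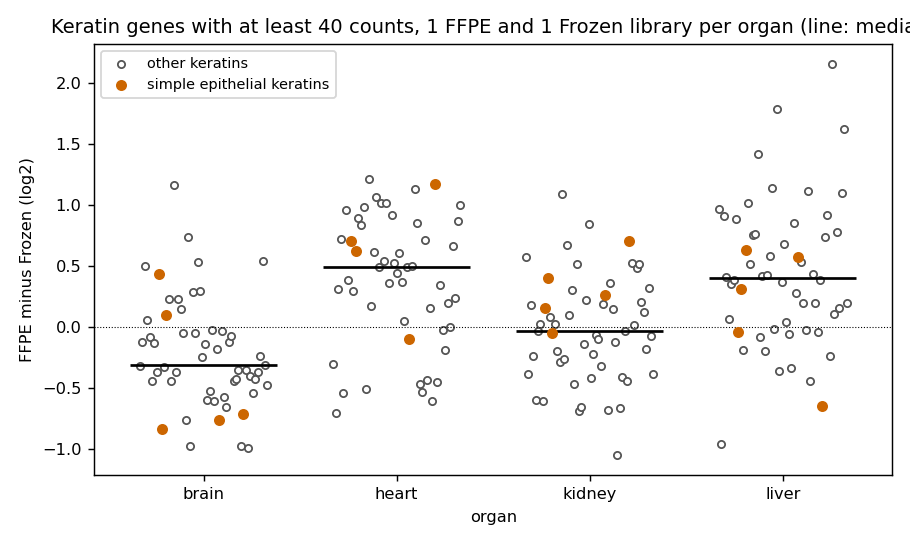
Difference in H3K27Ac between the FFPE and the Frozen library of each organ (log2, vertical axis) for each keratin with at least 40 counts over the pair, with simple epithelial keratins filled and a line at the median. Medians are -0.32 for brain, 0.49 for heart, -0.04 for kidney and 0.40 for liver, and the highest point is Krt83 in liver.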

How the data were processed

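H3K27Ac ChIP-seq of 4 mouse organs in 2 preservations is described by the labels as 16 H3K27Ac samples, 2 per group, and 8 inputs. The deposited table holds 1 column per group, with no replicate number. Each column was taken as 1 library, since no source says whether it holds 1 sample or pooled samples. Alignment with Bowtie2 to mm10, counting with featureCounts and the use of limma are named per the submitters' processing notes. Tool versions, the counted part of a gene and the treatment of multimapping reads were not given in the sources used here. Also, the labels name 2 ChIP runs and alternative library kits, which could not be matched to columns.

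The deposited values are log2 CPM: in each column 100% of them returned whole counts within 0.001, as log2 of the count plus 0.5 over an effective library size (0.749 to 1.22 times the total). Genes at 0 in all libraries (235) were removed, leaving 26944. The tests, all two-sided, were made with limma 3.58.1 (lmFit, eBayes with a variance trend, under R 4.3.3) on the deposited log2 values, with organ and preservation as terms, 3 residual degrees of freedom and Benjamini-Hochberg adjustment over all genes, at a threshold of 0.05. A p-value here reflects only how these 8 libraries scatter around the additive terms, and that scatter may be technical.

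The members, lists and tests were chosen with earlier results of these data known. The text names the 5 simple epithelial keratins, up to 8 other called keratins per direction and comparison, up to 4 genes per list and comparison, and the neighbours of the simple keratins. Alternatives were quantile normalization, the same median and spread in each library, no variance trend, at least 80 counts, no filter, an offset of 2 counts, voom weights on the recovered counts, and leaving out each library, which leaves 2 residual degrees of freedom. Lone libraries of an organ are then assumed to vary like the others. All 54 keratins matched a RefSeq gene table of GRCm38.p6, as did 25275 of the 27179 identifiers, and a symbol was missing in 1275 rows. Counting intervals are exact 95% intervals. The result of 1 marker list is not reported here.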

Additional observations from a re-analysis of the deposited data

Results flagged for a closer look

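The FFPE to Frozen ratio of 2 hair keratins lay on opposite sides of 1 in 2 organs, with counting intervals that excluded 1 in both and ratios at least 4-fold apart. For Krt33a the ratio was 2.04 in heart (95% counting interval 1.27 to 3.35, 54 and 28 counts) and 0.503 in brain (0.331 to 0.750, 36 and 86 counts). For Krt83 it was 4.56 in liver (2.72 to 8.03) and 0.682 in brain (0.472 to 0.976). With 1 library per organ and preservation the difference was not tested, and both genes have closely related copies whose sequences were not compared here.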

How the results depend on the processing

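No paired analysis was possible because the columns carry no replicate number and each group has 1 column. Organ was a term of every fit, so FFPE and Frozen tissue were compared within organs. Of the 26 calls, 1 (Krt24 in brain) passed in every alternative and none changed sign. Over all single-gene values, 519 kept direction and side of the threshold, 108 lost the call, 3 gained it and 30, all uncalled, changed sign. Counts of called keratins that moved by more than 1.5 times were as follows. With no variance trend, 3 were higher and 0 lower in brain, 1 lower in heart, 0 higher in kidney, and 2 higher and 1 lower in liver. The simple keratins alone then gave 0 lower in brain, 1 lower in heart, 0 higher in kidney and 0 lower in liver. Without the trend 4.7% of all genes were higher and 4.28% lower in brain, against 8.73% and 13.6% with it. In heart 2.2% were lower and in kidney 0.427% higher, against 7.31% and 3.19% with it. In liver 5.92% were higher and 4.02% lower, against 11.2% and 9.73%. With no filter, 0 were lower in brain, 3 in heart and 2 in liver, where 11.7%, 5.4% and 8.06% of all genes were. With quantile normalization, 2 were lower in brain (both simple), 3 in heart and 1 in kidney, where 13.9%, 7.68% and 3.25% of all genes were. With the same median and spread 1 was lower in kidney, where 3.29% of all genes were. With voom weights 1 was higher and 3 were lower in heart, where 10.3% and 5.68% of all genes were. Leaving out each library in turn gave 1 to 12 higher and 0 to 1 lower in brain, 0 to 1 higher and 0 to 8 lower in heart, 0 to 2 higher in kidney, 1 to 4 higher and 0 to 9 lower in liver, and 0 to 1 lower in FFPE. For the simple keratins the ranges were 0 to 1 lower in brain, 0 to 2 lower in heart, 0 to 2 higher in kidney, and 0 to 2 higher and 0 to 1 lower in liver.

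Differences that changed sign were Krt19 for FFPE (-0.070 with quantile normalization, -0.048 with the same median and spread), Krt20 in brain (-0.23 and -0.13), Krt19 in heart (0.21 and 0.12) and Krt7 for FFPE (0.035 with voom weights). Without 1 library, FFPE differences ran from -0.042 to 0.47 for Krt19, -0.20 to 0.24 for Krt7 and -0.22 to 0.41 for Krt8. Brain differences ran from -0.68 to 0.64 for Krt19 and -0.15 to 0.16 for Krt20, heart differences from -0.39 to 0.37 for Krt19 and liver differences from -0.36 to 0.050 for Krt20. The cause was not tested. Depth limits the lowest keratins, with 10 to 30 counts in a library.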
